A study of Mus musculus with 18 samples.

Results

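Mitochondria make most of the ATP of the kidney by oxidative phosphorylation (OXPHOS). Electrons enter the respiratory chain at complex I (NADH dehydrogenase) or complex II (succinate dehydrogenase), pass through complex III (the cytochrome bc1 complex) to complex IV (cytochrome c oxidase), and the proton gradient built on the way drives complex V (ATP synthase). Most subunits are encoded in the nucleus and a few in the mitochondrial genome, and the proximal tubule and the thick ascending limb, which reabsorb most of the filtered salt and solutes, are rich in mitochondria.

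The genes described here were the nuclear OXPHOS genes, chosen by name: protein-coding genes whose symbol starts with Nduf, Uqcr, Cox4i, Cox5, Cox6, Cox7, Cox8 or Atp5, with Sdha, Sdhb, Sdhc, Sdhd and Cyc1. There were 99 such genes, and 91 of them had at least 10 counts in every library, out of 12665 genes of the whole data set that did. They comprised 37 genes of complex I, 8 genes named as complex I assembly factors (Ndufaf), 4 of complex II, 9 of complex III, 15 of complex IV and 18 of complex V. Ndufa4 and Ndufa4l2 were counted with complex IV, in which NDUFA4 is now placed, and the prefix takes in genes that are no structural subunit, such as Atp5if1, which encodes the inhibitor of the ATP synthase.

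The libraries were bulk poly(A) RNA-seq of kidney from 18 adult wild-type mice of the outbred CD-1 stock. The 4 groups were LP males (5 libraries), LP females (5), NP males (5) and NP females (3), where LP and NP are the low- and normal-protein diets of the mother during gestation and lactation. All offspring ate the normal-protein diet after weaning, and all had received cationic ferritin (horse spleen), which labels glomeruli. The time between the last ferritin injection and collection was shorter in males, so sex and that interval cannot be told apart. The mice came from a few litters that are not given per library, so the p-values below measure only the spread between these libraries. The libraries held 14050486 to 23562411 counts on genes. The 12 proximal tubule markers were all detected, and their summed level was 13842 to 29802 CPM (counts scaled to the library size).

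Some libraries held fat markers or stood apart from their group. The brown fat markers (4 genes, among them Ucp1) summed to 153 CPM in NP female 3, 41.3 in LP female 5, 23.7 in NP male 3, 21.2 in LP male 4 and 20.7 in NP male 2, and to at most 2.95 CPM in the other 13 libraries. Interferon-stimulated genes (15 genes) summed to 206, 288 and 226 CPM in LP female 1, LP female 2 and NP female 3 and to 988 to 4229 CPM in the other 15. The main counts and medians that involve females, and the members the results turn on, are therefore given also without those 3 libraries.

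Some of the promoters held sequence motifs that OXPHOS genes are known for, and the shares given here were not tested. The nuclear respiratory factor NRF1, the ETS factor GABP, YY1 and the estrogen-related receptors are known activators of this gene family. In the RefSeq promoter table (GRCm38.p6; 300 bases around each start), 73 members were found, 60 by symbol and 13 by an older symbol, with 78 promoters. On either strand, the palindromic NRF1 motif (the first run of capitals in the Ndufaf4 promoter below) was in 7 of these 78 promoters (8.97%) and in 0.971% of all 32851 promoters. The ETS motif CCGGAAG was in 18 (23.1%, against 8.86% of all), the YY1 motif AAGATGGC in 11 (14.1%, against 2.75%) and the estrogen-related receptor motif TCAAGGTCA in 2 (2.56%, against 0.423%). None of these letter strings contains another, and a match is a description of the letters, not of binding. The 5 promoters below are chosen examples, and their share of motifs does not stand for that of the 78. The promoters of Atp5f1b and Ndufv3, genes that the results below also turn on, held none of these motifs and are not shown. Capitals mark the motifs, read on either strand.

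Cox6a1: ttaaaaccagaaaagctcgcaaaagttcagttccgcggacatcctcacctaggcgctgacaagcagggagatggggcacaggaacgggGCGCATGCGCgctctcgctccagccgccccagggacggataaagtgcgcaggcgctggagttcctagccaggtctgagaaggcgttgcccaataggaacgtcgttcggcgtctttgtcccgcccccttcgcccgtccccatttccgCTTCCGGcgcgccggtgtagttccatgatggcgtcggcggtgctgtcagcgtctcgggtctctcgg
Ndufaf4: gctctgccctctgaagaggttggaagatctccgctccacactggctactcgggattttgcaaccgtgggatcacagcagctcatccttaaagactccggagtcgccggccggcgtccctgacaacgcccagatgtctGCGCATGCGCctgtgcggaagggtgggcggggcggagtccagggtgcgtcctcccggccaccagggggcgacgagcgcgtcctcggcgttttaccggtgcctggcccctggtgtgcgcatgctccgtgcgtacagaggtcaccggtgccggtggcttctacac
Ndufaf5: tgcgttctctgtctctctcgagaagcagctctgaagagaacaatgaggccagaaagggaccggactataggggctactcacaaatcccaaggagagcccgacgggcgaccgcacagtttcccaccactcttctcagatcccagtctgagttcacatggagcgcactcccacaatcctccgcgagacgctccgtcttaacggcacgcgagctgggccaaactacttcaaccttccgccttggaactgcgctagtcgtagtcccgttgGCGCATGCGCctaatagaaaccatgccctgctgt
Sdhd: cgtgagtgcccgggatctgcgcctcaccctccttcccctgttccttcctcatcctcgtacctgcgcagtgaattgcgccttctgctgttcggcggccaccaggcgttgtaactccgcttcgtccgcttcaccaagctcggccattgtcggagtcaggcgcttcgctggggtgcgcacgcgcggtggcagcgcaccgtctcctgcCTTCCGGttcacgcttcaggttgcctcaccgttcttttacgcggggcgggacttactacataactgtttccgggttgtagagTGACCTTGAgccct
Cox6b2: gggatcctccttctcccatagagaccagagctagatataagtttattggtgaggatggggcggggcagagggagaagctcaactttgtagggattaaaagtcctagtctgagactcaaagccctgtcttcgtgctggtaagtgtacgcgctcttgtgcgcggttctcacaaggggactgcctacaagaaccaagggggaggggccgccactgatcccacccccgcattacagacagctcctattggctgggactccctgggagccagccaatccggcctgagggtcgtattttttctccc

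Cox6a1 (chr5:115348909-115349208, minus strand) was the member with the highest level, and its promoter held an NRF1 and an ETS motif. Ndufaf4 (chr4:24897833-24898132, plus strand) and Ndufaf5 (chr2:140170396-140170695, plus strand) shared the NRF1 motif and differed between the sexes in opposite directions. Sdhd (chr9:50603800-50604099, minus strand) held an ETS and an estrogen-related receptor motif and belongs to complex II, the complex that varied least. Cox6b2 (chr7:4753045-4753344, minus strand) had the largest difference between the sexes and held none of the 4 motifs in this window.

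Levels were compared between genes as CPM per kilobase of the canonical transcript, averaged over the 18 libraries. Cox6a1, a regulatory subunit of complex IV, had the highest level (1276 CPM per kb), followed by Atp5f1a, the alpha subunit of the catalytic head of complex V (1071), Cox8a (1044), Ndufa4 (856), Cox6c (813) and Atp5mc3, one of 3 genes for the same c-ring subunit of complex V (783). The median level per kb was 324 in complex IV, 217 in complex V, 196 in complex II, 194 in complex III, 109 in complex I and 18.1 among the assembly factors. The assembly factors, which build complex I but are not part of it, spanned 5.99 (Ndufaf5) to 26.7 (Ndufaf8) CPM per kb and so lay below the median of every complex.

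**Figure D1:**
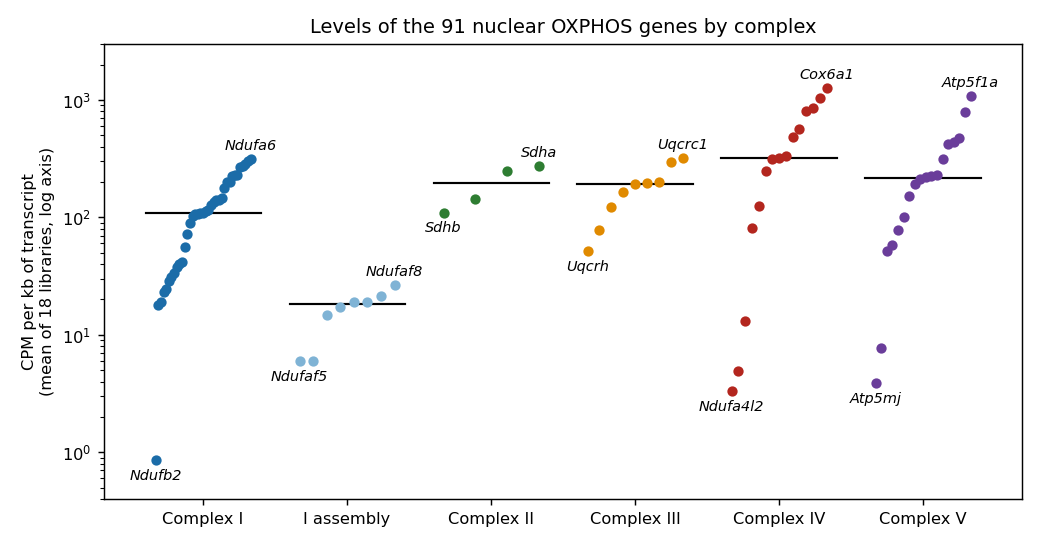
Level of each of the 91 members (dots; mean of 18 libraries, CPM per kb of transcript, log axis) by complex, with the median of each complex as a line and the highest and lowest member named. Complex IV spans the widest range of levels, from Ndufa4l2 at 3.32 to Cox6a1 at 1276, and the assembly factors lie between 5.99 and 26.7.

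Within complex IV, the forms known from most tissues carried nearly all of the signal. Of the paired forms, Cox6a1 stood at 1276 CPM per kb and its muscle and heart form Cox6a2 at 0.72, Cox8a at 1044 and the muscle and brown fat form Cox8b at 1.75, Cox7a2 at 317 and the muscle form Cox7a1 at 1.21, Cox4i1 at 250.4 and the lung form Cox4i2 at 1.21, and Cox6b1 at 570.4 and the testis form Cox6b2 at 4.94. Of the 3 c-ring genes of complex V, Atp5mc3 (783 CPM per kb) was above Atp5mc1 (443) and Atp5mc2 (151), which encode the same mature protein. Annotated copies covered 88.8% of the Atp5mc2 and 67.2% of the Atp5mc1 transcript and none of that of Atp5mc3, so this order is uncertain. Among the core subunits of complex I, the levels per kb were 267 for Ndufv1, which binds NADH, 224 for Ndufs7, 179 for Ndufs8 and 56.0 for Ndufs1, the largest subunit. In complex II the flavoprotein gene Sdha stood at 273 CPM per kb, the membrane anchors Sdhd and Sdhc at 248 and 145, and the iron-sulfur subunit Sdhb at 109.8.

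A few levels are uncertain because members share sequence with other genes. At least 50% of the exon bases of the canonical transcript lay in another annotated gene for 11 members, among them Atp5mk (100%), Ndufa3, Ndufa4l2 (in Shmt2), Ndufb8 and Ndufb11. The library protocol does not mark strand, so reads of such partners cannot be told apart. Reads on shared bases were set aside as ambiguous, so these levels can be too low. Smaller shares held for other members named below. Among them were Atp5f1b (24.0%, with the predicted gene Gm47438), Uqcr10 (43.5%), Uqcr11 (35.3%), Uqcrc2 (27.6%), Ndufa9 (17.5%) and Ndufs1 (17.4%). Ndufb2 (15.4%) and the counted Atp5po (18.3%) each shared exon bases with 3 other genes. Another 13 members had an annotated copy of at least 95% identity over at least 50% of the transcript, and 67 of the 91 had neither. The members lay on 19 chromosomes, 3 of them (Ndufa1, Ndufb11 and Cox7b) on the X, so the set is no genomic cluster.

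The 8 genes that did not pass the count filter were Cox4i2, Cox6a2, Cox7a1, Cox7b2, Cox8b, Cox8c, Ndufb11b and a second Atp5po identifier. Ndufb11b, Cox7b2 and Cox8c had 0 counts in all 18 libraries, which allows up to 3 counts in each. The second Atp5po identifier also had 0 counts in every library. Of its exon bases, 100% lie in other annotated genes (the counted Atp5po and Donson), so its 0 sets no such bound. Just outside the filter, Cox4i2 had 4 to 41 counts and Cox7a1 4 to 29 per library, and just inside it Cox6b2 had 11 to 158, Ndufb2 25 to 114 and Ndufa4l2 27 to 174. The highest Ndufa4l2 counts, 174 and 130, were those of LP females 1 and 2, and the other 16 libraries had 27 to 66.

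Cox8b was the form whose counts followed fat markers in males. It had 43 counts in LP male 4, 64 in NP male 2 and 69 in NP male 3, the 3 males with brown fat markers, and 0, 0, 0 and 2 counts in the other LP males and 0, 3 and 2 in the other NP males. Ucp1, the uncoupling protein that marks brown fat, had 284, 114 and 80 counts in the same 3 males and 0 to 4 in the other 7. In females the match was looser. Cox8b had 84, 104, 10, 74 and 162 counts in LP females 1 to 5 and 51, 18 and 451 in NP females 1 to 3, with Ucp1 at 16, 0, 0, 0 and 654, and at 24, 7 and 1287. LP females 2, 3 and 4 thus had Cox8b counts without Ucp1 counts. Cox6a2, the muscle and heart form, had 32 counts in LP male 3, 31 in LP female 1, 28 in LP female 2 and 18 in NP female 2 and at most 8 elsewhere, and Ckm, which encodes muscle creatine kinase, had at most 2 counts in any library. The Cox8b counts can be too low, since 57.3% of its exon bases lie in Psmd13 and reads on shared bases were set aside as ambiguous.

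The members moved together from library to library, and most of this variation lay within the groups. The summed level of the 91 members was 19777, 22537, 22715, 18563 and 21927 CPM in LP males 1 to 5. It was 24119, 19683, 19522, 19049 and 27286 CPM in NP males 1 to 5. In LP females 1 to 5 it was 22774, 21662, 18326, 23159 and 19370 CPM, and in NP females 1 to 3 it was 24137, 17477 and 28519 CPM. Both the highest and the lowest library of all 18 were therefore NP females, and the 4 groups overlapped. The mean ± SD was 21104 ± 1840.4 CPM for the LP males and 21932 ± 3627 for the NP males (n = 5 each). The LP females averaged 21058 ± 2124 CPM (n = 5), and the NP females 23378 ± 5560.0 (n = 3). CPM here is scaled by TMM factors, which set the typical gene, not the total, equal between libraries. In bulk tissue, fewer cells of a type and less RNA per cell cannot be told apart.

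Complex by complex, the same libraries were high and low. For complex I (37 genes) the summed level was 5219 ± 624.6 CPM for LP and 5470.0 ± 1124 for NP males, and 5022 ± 603 for LP and 5912 ± 1819 for NP females (SD; n = 5, 5, 5 and 3). For complex III (9 genes) the 4 sums were 2492 ± 210.3, 2637 ± 468, 2440 ± 224 and 2725 ± 599 CPM in the same order. For complex IV (15 genes) they were 3871 ± 511, 3993 ± 854, 3904 ± 571 and 4982 ± 1803 CPM, and for complex V (18 genes) 7258 ± 493.3, 7536 ± 1069, 7342 ± 587 and 7550 ± 1186 CPM. The 4 genes of complex II summed to 2033 ± 60.6, 2053 ± 103, 2136 ± 144 and 1967 ± 127 CPM. Complex II held 9.48% of the members' counts and ranged from 1851 to 2286 CPM over all 18 libraries, while complex IV ranged from 3134 to 6736 CPM. The assembly factors ranged from 194 to 280.5 CPM.

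On the log2 scale, the median difference of the 91 members from their own 18-library mean was 0.66 in NP female 3, 0.42 in NP male 5, 0.28 in NP female 1 and 0.16 in NP male 1. At the other end it was -0.36 in NP female 2, -0.35 in LP male 4, -0.30 in LP female 3 and -0.24 in NP male 4. NP female 3 had the highest level of all 18 libraries for 63 of the 91 members, and NP male 5 the highest level of the 10 males for 75. NP female 2 had the lowest level of all 18 libraries for 37 members, and LP male 4 the lowest of the males for 56. In NP female 3 the median difference was 0.74 for complex I, 0.67 for complex III, 0.67 for complex IV and 0.72 for complex V, but 0.34 for the assembly factors and 0.22 for complex II. The median SD of a member within a group was 0.22 for LP and 0.31 for NP males, and 0.22 for LP and 0.54 for NP females, against 0.21, 0.24, 0.26 and 0.37 over all 12665 genes.

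**Figure D2:**
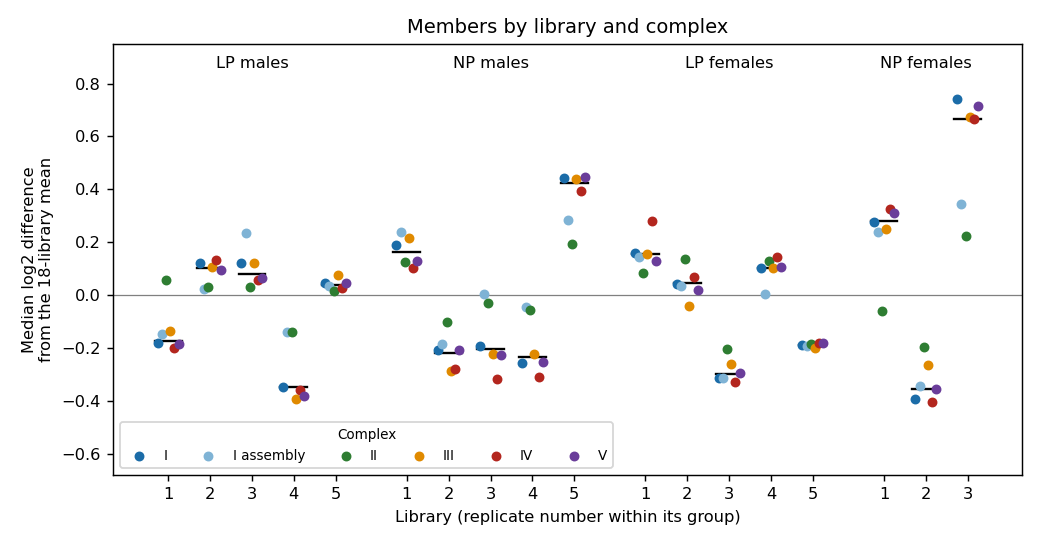
Median log2 difference of the members of each complex (colored dots) and of all 91 members (black lines) from their 18-library mean, for each library in its group. NP female 3 (0.66) and NP male 5 (0.42) lie highest and NP female 2 (-0.36) and LP male 4 (-0.35) among the lowest, and complex II stays closest to 0 in most libraries.

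Transcript length moved with this pattern. The members have short transcripts, with a median of 1154 bases against 3360.5 bases over all genes tested, and 65 of the 91 (71.4%) were no longer than 1819 bases, as were 2468 other genes. Those 2468 other genes were shifted by 0.43 in NP female 3, 0.25 in NP male 5, -0.25 in NP female 2 and -0.20 in LP male 4 on the same log2 scale. Under 800 bases, 494 other genes were shifted by 0.76 in NP female 3, beside 0.78 for the 32 members of that length, and by 0.27 in NP male 5, beside 0.45 for the members. The 2532 genes with the longest transcripts (median 7076 bases) were shifted the other way, by -0.25, -0.23, 0.24 and 0.17 in the same 4 libraries. Across the 91 members, Spearman's rho of the difference with transcript length was -0.41 in NP female 3, -0.24 in NP male 5, 0.31 in NP female 2 and 0.46 in LP male 4, a description over genes that share each library. Members with longer transcripts went both ways in NP female 3. Ndufs1 (3613 bases) was at -0.69, Uqcrc2 (2322) at -0.67, Atp5f1b (1926) at -0.64 and Sdha (3073) at -0.44, whereas Uqcr11 (2746) was at 1.33. The mitochondrially encoded genes made up 17.1% of the scaled counts of NP female 3 and 5.67% to 10.4% of the others. The part of length, depth or RNA quality in the pattern was not tested, and each comparison below is given also with offsets that remove the trend of each library with transcript length.

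**Figure D3:**
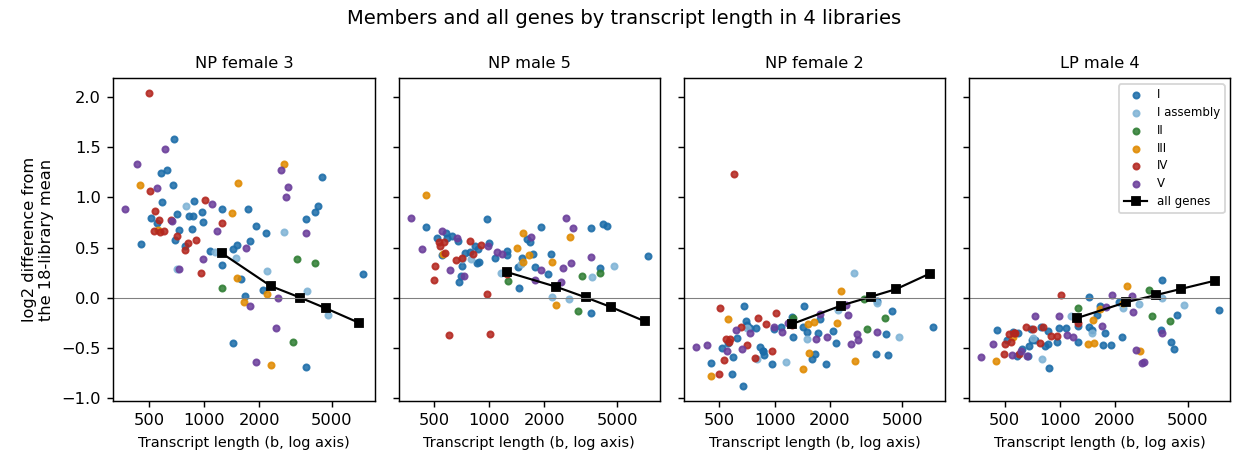
Log2 difference of each member (dots, colored by complex) from its 18-library mean against the length of its canonical transcript (bases, log axis) in 4 libraries, with the medians of all genes in 5 equal bins of length (black squares). In NP female 3 and NP male 5 the short transcripts lie high and in NP female 2 and LP male 4 they lie low, for all genes as for the members.

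The first question of the design was whether maternal diet changed kidney expression in males. None of the 91 members was called between LP and NP males (edgeR's quasi-likelihood test, Benjamini-Hochberg adjusted p under 0.05 over 13181 genes), where 0.0379% of all genes were called. No member had an unadjusted p under 0.05, against 3.84% of all genes, DESeq2 and limma-voom called 0 members as well, and in no member did the groups fail to overlap, against 0.645% of all genes. The fitted log2 fold changes of LP over NP males ranged from -0.20 (Ndufaf8) to 0.21 (Cox7b). They were below 0 in 76 of the 91 members, against 51.2% of all genes, with a median of -0.05 beside -0.004 for all genes. That small shift rested on single libraries. Without NP male 5 the median was 0.07 and 73 members were positive, and without LP male 4 it was 0.004 with 49 positive. With length offsets the median was -0.01 with 48 negative, and limma-voom with quality weights gave 0.09 with 11 negative.

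The values of the catalytic subunits show how close the male groups were. Atp5f1b, the beta subunit that holds the catalytic sites of complex V, stood at 825, 871, 952, 823 and 856 CPM in LP males 1 to 5 and at 884, 892, 805, 836 and 978 CPM in NP males 1 to 5. Sdha, the subunit of complex II that oxidizes succinate, stood at 886, 756, 797, 877 and 787 CPM in LP males and at 815, 873, 838, 814 and 758 CPM in NP males. Ndufs1 stood at 221, 209.6, 205.5, 226 and 206 CPM in LP males and at 207, 236, 219.6, 221 and 180.4 CPM in NP males. In all 3 genes the ranges of the male groups overlapped almost wholly. Cox7b, a small subunit of complex IV on the X chromosome, had 2 levels within each male group: 364, 451, 405 and 321 CPM in LP males 1 to 4 but 192 in LP male 5, and 353, 359 and 329.6 CPM in NP males 2 to 4 but 206 and 245 in NP males 1 and 5. Its low libraries were therefore not those in which the other members were low, since NP male 5 was the highest male for 75 members.

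The second question was the same comparison in females. None of the 91 members passed the adjusted threshold, and neither did any of the 13510 genes tested (0%), and DESeq2 and limma-voom called 0 members too. The counts with an unadjusted p under 0.05 were 5 of 91 members, against 4.17% of all genes. The median log2 fold change of LP over NP females was -0.28, with 76 members below 0, against 51.9% of all genes. By complex, the median was -0.28 in complex I, -0.18 in the assembly factors, -0.01 in complex II, -0.17 in complex III, -0.28 in complex IV and -0.32 in complex V. These medians rested on 2 of the 3 NP females. Without NP female 3 the median over the 91 members was -0.01 and without NP female 2 it was -0.49, with 53 members (58.2%) at an unadjusted p under 0.05, against 19.4% of all genes in the same fit, and none called. With length offsets it was -0.06, and without LP female 1, LP female 2 and NP female 3 it was -0.10.

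Among the 5 members with an unadjusted p under 0.05, Atp5f1b had the smallest. Atp5f1b (chr10:127919132-127926261, GRCm39) stood at 833, 939, 811, 841 and 804 CPM in LP females 1 to 5 and at 648, 616 and 519 CPM in NP females 1 to 3. Every LP female was above every NP female, and the 3 NP females were also below all 10 males (805 to 978 CPM). The log2 fold change of LP over NP females was 0.51 (SE 0.14), with an adjusted p of 0.886 by edgeR and 0.101 by DESeq2. An exact two-sided permutation test of the diet labels gave p = 0.0179, the smallest that 5 against 3 libraries allow. The gene was picked for its small p and its groups did not overlap, so this p is no separate support. With length offsets the log2 fold change was 0.57, and without LP female 1, LP female 2 and NP female 3 it was 0.38. Across the 21 alternative settings the adjusted p lay between 0.101 and 1.

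Sdha and Ndufa9 were the other members whose female groups did not overlap. That made 3 of the 91 members, against 2.95% of all genes. Sdha stood at 855, 949.7, 909, 1016.5 and 976 CPM in LP females and at 747, 825 and 612 CPM in NP females, a difference of 0.37 (SE 0.16) on the log2 scale with an edgeR adjusted p of 0.886. Ndufa9, an accessory subunit of complex I, stood at 157, 174, 158, 190.6 and 159 CPM in LP females and at 153, 148 and 114.5 CPM in NP females, a difference of 0.28 (SE 0.15). Without NP female 3 the values fell to 0.26 for Sdha and 0.16 for Ndufa9, and without LP female 1, LP female 2 and NP female 3 they were 0.31 and 0.18. Ndufs1 stood at 181.5, 222, 212, 214 and 215 CPM in LP females and at 146, 195 and 124 CPM in NP females, and here LP female 1 lay within the range of the NP females.

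Of the 76 members with a lower fitted level in LP females, Cox7b and Ndufb7 had an unadjusted p under 0.05. Cox7b stood at 289, 257, 270.2, 346 and 212 CPM in LP females and at 408, 284 and 618 CPM in NP females, and LP over NP gave -0.65 (SE 0.24) on the log2 scale. Ndufb7, an accessory subunit of complex I with a transcript of 623 bases, stood at 138, 102, 83.2, 126 and 92.9 CPM in LP females and at 169, 89.5 and 286 CPM in NP females, and LP over NP gave -0.73 (SE 0.31). In both genes NP female 2 lay among the LP females. Without NP female 3 the log2 fold changes were -0.33 (SE 0.22) for Cox7b and -0.25 (SE 0.28) for Ndufb7, and without LP female 1, LP female 2 and NP female 3 they were -0.32 (SE 0.25) and -0.35 (SE 0.30).

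The third question was whether the effect of diet differed between the sexes. edgeR called 0 members for the diet by sex interaction, where 0.0158% of all genes were called. The 6 members with an unadjusted p under 0.05, against 4.02% of all genes, were Atp5f1b, Sdha, Ndufs1, Cox7b, Uqcrc2 and Ndufa9. For Atp5f1b the effect in females exceeded that in males by 0.53 (SE 0.14) on the log2 scale, with an adjusted p of 0.977 in edgeR. DESeq2 gave the same gene 0.54 and an adjusted p of 0.0109, so this call depended on the tool, and over 30 alternative settings it was made in 1. For Uqcrc2, a core subunit of complex III, the difference was 0.39 (SE 0.17), and without NP female 3 it was 0.21. Without LP female 1, LP female 2 and NP female 3 the value was 0.39 (SE 0.14) for Atp5f1b and 0.19 (SE 0.13) for Uqcrc2. The median over the members was -0.23 beside 72 of 91 below 0, against 52.9% of all genes. It was -0.03 with length offsets, 0.04 without NP female 3 and -0.47 without NP female 2, where 28 members (30.8%) had an unadjusted p under 0.05, against 15.2% of all genes in that fit. Without LP female 1, LP female 2 and NP female 3 it was -0.06, with 60 members below 0.

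**Figure D4:**
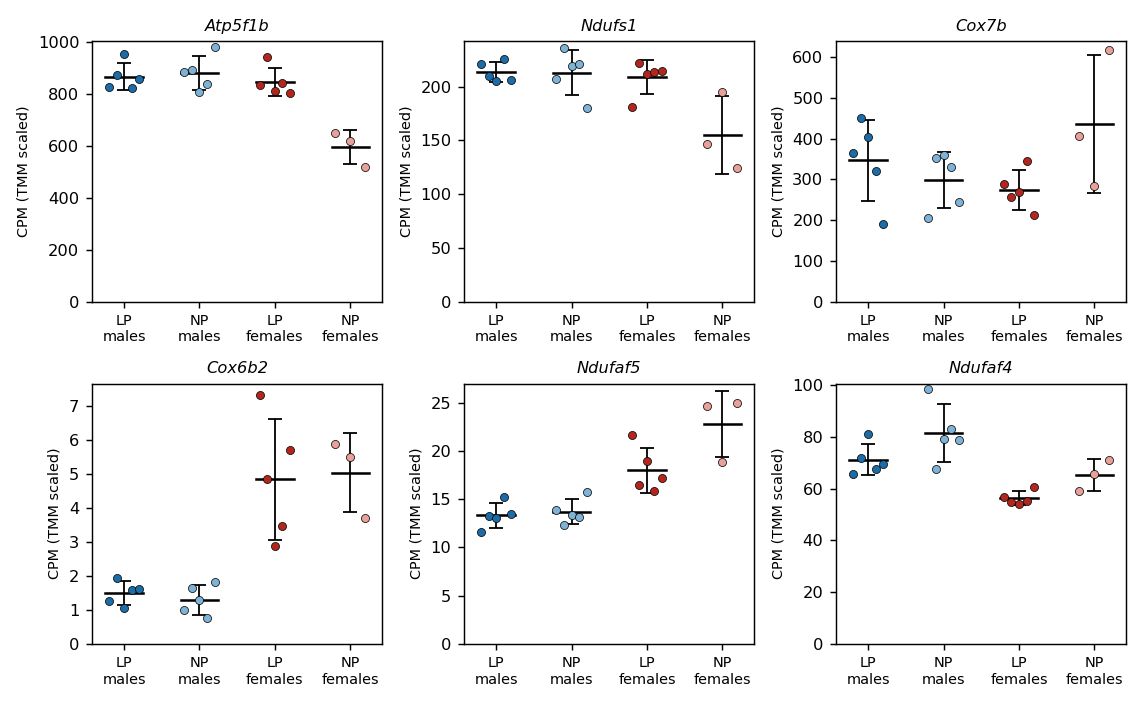
CPM of 6 members in every library (dots) with the mean and SD of each group (lines and bars). In Atp5f1b the 3 NP females (519 to 648) lie below the other 15 libraries (804 to 978), in Cox6b2 and Ndufaf5 all females lie above all males, and in Cox7b the male groups each hold high and low libraries.

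The fourth comparison was males against females, averaged over the diets, in which collection time cannot be told apart from sex. The test called 13 of the 91 members (14.3%), a smaller share than the 38.7% of all 12665 genes that were called. Of these, 6 members were higher in males (18.9% of all genes were) and 7 were higher in females (19.8% of all genes). By complex, 6 of 37 members of complex I were called, 2 of 8 assembly factors, 0 of 4 in complex II, 0 of 9 in complex III, 3 of 15 in complex IV and 2 of 18 in complex V. The median log2 fold change of males over females was -0.14 over the members, beside -0.05 over all genes, and 65 members were below 0 (71.4%, against 55.0% of all genes). An unadjusted p under 0.05 was found for 20 members, against 46.9% of all genes. Leaving out 1 library moved the count from 7 (without NP female 3, against 35.4% of all genes) to 26 (without NP female 2, against 41.9% of all genes). The split depended on scaling, since dividing by library totals alone called 28 members, 1 higher in males and 27 higher in females.

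The largest difference was in Cox6b2, known as the testis form of a complex IV subunit. Cox6b2 (chr7:4754789-4756093, GRCm39) had 17, 26, 19, 35 and 29 counts in LP males 1 to 5 and 14, 27, 20, 11 and 31 in NP males 1 to 5. Females had 158, 97, 56, 57 and 140 counts in LP females 1 to 5 and 98, 99 and 52 in NP females 1 to 3. All 8 females were above all 10 males. In CPM the group means were 1.49 ± 0.35 for LP and 1.3004 ± 0.44 for NP males (SD, n = 5 each), 4.85 ± 1.78 for LP females (n = 5) and 5.05 ± 1.16 for NP females (n = 3). Males over females gave a log2 ratio of -1.82 (SE 0.21), for which edgeR returned an adjusted p of 4.00e-06. It was called under each of 32 alternative settings, in NP mice alone (-1.94) and in LP mice alone (-1.70). Cox6b2 stayed a minor form in females, since Cox6b1 had 292 to 629 CPM there.

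Ndufaf5 and Ndufaf4, both needed to assemble complex I, differed in opposite directions. Ndufaf5 (chr2:140012562-140047301, GRCm39), which encodes a hydroxylase of the subunit NDUFS7, stood at 11.6, 13.2, 13.004, 15.3 and 13.5 CPM in LP males and at 13.9, 12.3, 13.3, 13.2 and 15.8 CPM in NP males. It stood at 21.6, 16.4, 18.96, 15.8 and 17.2 CPM in LP females and at 24.6, 18.9 and 24.98 CPM in NP females. Every female was above every male, narrowly so for LP female 4, and edgeR put males below females by a log2 ratio of -0.59 (SE 0.09) with an adjusted p of 7.59e-05. Ndufaf4 (chr4:24898079-24905001, GRCm39) stood at 65.7 to 81.3 CPM in LP males and 67.7 to 98.5 in NP males, and at 54.2 to 60.8 CPM in LP females and 59.1 to 71.1 in NP females. Males were higher by 0.33 (SE 0.07) on the log2 scale, with an adjusted p of 0.00217. Groups not overlapping by sex were found in 2 of the 91 members, Cox6b2 and Ndufaf5, against 8.39% of all genes.

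The other members higher in males were Atp5f1b and 4 genes of complex I. Atp5f1b was higher by 0.30 (SE 0.07, adjusted p = 0.00249), and the value was 0.57 in NP mice (adjusted p = 0.0205) and 0.04 in LP mice (adjusted p = 0.818). Ndufv1, which binds NADH, was higher by 0.32 (SE 0.11), Ndufv3, an accessory subunit, by 0.38 (SE 0.13) and Ndufs1, a core subunit, by 0.24 (SE 0.08). Ndufv2, the partner of Ndufv1, was not called and stood at -0.17 (SE 0.11). Ndufa10, an accessory subunit, was higher by 0.26 (SE 0.08). Ndufv1 stood at 415 to 519 CPM in LP males and 428 to 642 in NP males, and at 343 to 448 in LP females and 298 to 474 in NP females, so the sexes overlapped. The adjusted p of these 4 genes lay between 0.0194 and 0.0277. Without LP female 1, LP female 2 and NP female 3, Atp5f1b (0.26), Ndufv3 (0.44) and Ndufa10 (0.31) were still called, while Ndufv1 (0.34, adjusted p = 0.0585) and Ndufs1 (0.15, adjusted p = 0.163) were not. Ndufs1 was at 0.46 in NP mice and 0.04 in LP mice, and both Ndufv1 and Ndufs1 were called in 11 of the 18 fits that left out 1 library.

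The other 5 members higher in females were 2 of complex I, 2 of complex IV and 1 of complex V. Cox6c was higher in females by 0.48 on the log2 scale (a fold change of males over females of -0.48, SE 0.14), Atp5mc1 had a fold change of -0.64 (SE 0.22), Ndufb8 of -0.57 (SE 0.20), Cox7a2l of -0.36 (SE 0.13) and Ndufa7 of -0.38 (SE 0.14). Cox6c stood at 286 to 383 CPM in LP males and 291 to 489.8 in NP males, and at 341 to 502 in LP females and 367 to 824 in NP females. Atp5mc1 stood at 702 CPM in NP female 3 and 446 in LP female 1 against 165 to 304 in males. Cox7a2l helps build supercomplexes of the respiratory chain, and its values ran from 77.8 to 118 CPM in males and from 82.6 to 167 CPM in females. Annotated copies covered 84.9% of the Cox7a2l transcript and 67.2% of that of Atp5mc1, and 68.6% of the Ndufb8 exon bases lay in Gm20538, so these 3 levels are uncertain. Without LP female 1, LP female 2 and NP female 3, the 5 genes had log2 fold changes between -0.27 and -0.13 and none passed the threshold, while Cox6b2 (-1.79) and Ndufaf5 (-0.54) did.

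The direction of the sex difference went with transcript length. The 6 members higher in males had a median transcript of 2769.5 bases and none under 1599, and the 7 higher in females had a median of 682, with Ndufaf5 the longest at 2722. With length offsets 22 members were called, 12 higher in males and 10 higher in females, and these included 5 of the 6 and all 7 of the members above. Ndufa10 was the exception (0.22, adjusted p = 0.201). Ndufa4 moved from 0.06 to 0.32 (adjusted p = 0.000183) and Ndufa1 from 0.15 to 0.43 (adjusted p = 0.000206) with the offsets. Without the 3 females that stand apart, 8 members were called, against 37.7% of all genes. In the fit with all libraries, with length offsets and without those females alike, 5 were called: Cox6b2, Ndufaf5, Ndufaf4, Atp5f1b and Ndufv3. In NP mice alone 3 members were called and in LP mice alone 4. For the fits with length offsets, in NP mice, in LP mice and by library totals, the share of all genes is not reported here.

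**Figure D5:**
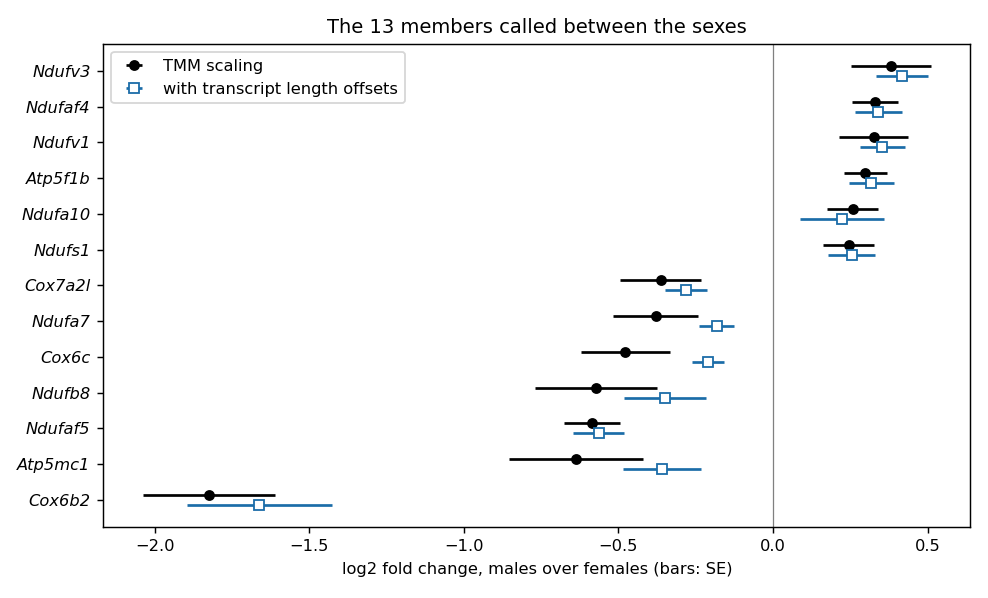
Log2 fold change of males over females with its SE for the 13 members called, with TMM scaling (black) and with transcript length offsets (open squares). The 6 members higher in males keep values between 0.22 and 0.42 with the offsets, and those higher in females move toward 0, with Cox6b2 at -1.66 and Ndufaf5 at -0.56 staying the lowest.

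Cell type markers also moved with sex. The summed level of the 12 proximal tubule markers was 25025 to 29802 CPM in males and 13842 to 20054 CPM in females, with 5 of 12 higher and 1 lower in males. Gene by gene the shift was smaller than in the sum, since the median log2 fold change of the 12 was 0.02 and 5 of them were below 0. The thick ascending limb (6 genes) had 3 of 6 markers lower in males, the distal convoluted tubule 4 of 4, collecting duct principal cells 3 of 5 tested, intercalated cells 5 of 5, podocytes 5 of 5, inner medulla and papilla 2 of 6 tested and endothelium 0 of 6. Of the other lists, 1 of 6 leukocyte markers tested, 1 of 12 interferon-stimulated genes and 3 of 9 glucocorticoid targets were lower in males. Called were 0 of 3 smooth muscle genes and 0 of 1 red blood cell gene. Of all genes, 38.7% were called by sex. Without LP female 1, LP female 2 and NP female 3 (37.7% of all genes called), 14 of 15 interferon-stimulated genes and 7 of 10 glucocorticoid targets were lower in males. Low interferon-stimulated genes had set those 3 libraries apart, so that count of 14 is no test of sex. Glucocorticoid targets summed to 508, 509 and 898 CPM in the same 3 libraries and to 1602.5 to 2320 CPM in the other females. The count of 7 is therefore no test of sex either. In the same fit the thick ascending limb had 5 markers lower and 1 higher in males, and the proximal tubule 3 lower and 5 higher. No gene of the white fat, brown fat, skeletal muscle and adrenal cortex lists passed the count filter in all 18 libraries. No gene of any of these lists was called by diet in either sex. Their part in the sex differences of the members was not tested.

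The other genes of the pathway were read from lists outside the naming rule, and their calls by sex stand beside the 38.7% of all genes that were called. Of the mitochondrially encoded subunits, 10 passed the count filter and 3 (30%) were lower in males: mt-Co1 (-0.60, SE 0.18, adjusted p = 0.0152), mt-Co3 (-0.55, SE 0.20) and mt-Cytb (-0.51, SE 0.17). Without LP female 1, LP female 2 and NP female 3 none of the 10 was called, and these 3 stood at -0.22 (adjusted p = 0.192), -0.14 and -0.16. No mitochondrially encoded subunit was called by diet, and the median log2 fold change of LP over NP was -0.004 in males and -0.38 in females. The female median rested on NP female 3, the library with the highest mitochondrial share, and without it was 0.19 with all 10 above 0. Of the 44 assembly factors outside the rule, 9 were higher and 2 lower in males (25%), and 14 and 1 without those 3 females. The highest was Uqcc5 (0.86, SE 0.22), a factor for complex III, followed by Acad9 (0.78, SE 0.11), which helps assemble complex I, and Lyrm7, a complex III factor, was lower (-1.18, SE 0.31).

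Among 22 regulators of mitochondrial gene expression, 5 were higher and 1 was lower in males (27.3%), and 5 and 3 without LP female 1, LP female 2 and NP female 3. Tfam, which packages and transcribes mitochondrial DNA, was higher by 0.30 (SE 0.06, adjusted p = 0.000773) and Polrmt, the mitochondrial RNA polymerase, by 0.28 (SE 0.07), while Ppargc1a, a coactivator of mitochondrial genes, was lower (-0.45, SE 0.14, adjusted p = 0.019). Of 23 genes for electron carriers and adenine nucleotide exchange, 9 were higher and 2 lower in males (47.8%; 8 and 2 without those females), led by Cycs, which encodes cytochrome c (0.88, SE 0.10), while Slc25a4, an ADP/ATP carrier, was lower (-0.39, SE 0.07). Of 16 citric acid cycle genes 7 were higher in males (43.8%; 6 without those females), and none was lower. No gene of these 4 lists was called by diet in either sex or for the interaction (edgeR).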

How the data were processed

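RNA-seq of kidney was deposited as gene counts, which the authors made with STAR on GRCm39 (aligner version not given in the sources used here). Counts without regard to strand were used, and 2 strand-specific columns were not. A gene entered a comparison when each of its libraries had 10 or more counts, and edgeR 4.0.16 (R 4.3.3; TMM scaling, quasi-likelihood test, Benjamini-Hochberg adjustment over all genes, threshold 0.05) compared LP against NP within each sex, their interaction, and males against females. DESeq2 1.42.0 and limma-voom (limma 3.58.1) were alternatives. Length offsets were lowess fits (span 0.3) per library. Transcript lengths and overlaps came from GENCODE vM39, copies from blastn 2.17.0. The tests were checked on simulated data.

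The members and lists were chosen with earlier results of these data known. Genes were named by a rule: the members with the smallest adjusted p per comparison and complex, the highest and lowest levels, alternative forms, core subunits, and those near the count filter. Some genes that the rule names are not reported here. Other members named, such as Uqcr11, were chosen after their values were seen. The lists were mitochondrially encoded subunits, assembly factors, regulators, electron carriers, citric acid cycle, kidney and other cell types, interferon-stimulated genes and glucocorticoid targets.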

Additional observations from a re-analysis of the deposited data

Results flagged for a closer look

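The genes that the naming rule picked and that passed the count filter were screened in the 3 groups of 5 libraries. The summed levels by complex and over all members were screened with them. Of these 159 combinations, 7 had 1 library farther from the others than Dixon's 95% critical ratio of 0.71 allows, and chance gives about 1 in 20. In LP females, Atp5f1b was at 939 CPM in LP female 2 beside 804 to 841 in the others, Ndufs1 at 181.5 CPM in LP female 1 beside 212 to 222, and Uqcrfs1 at 477 CPM in LP female 4 beside 382 to 407. In LP male 4, Sdhc was at 407 CPM beside 456 to 476 in the other LP males, and Sdhd at 289.6 CPM beside 327 to 335. In NP male 5, Atp5po was at 33.2 CPM beside 14.5 to 19.2 in the other NP males, and Uqcr10 at 104 CPM beside 41.2 to 57.2.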

How the results depend on the processing

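None of the members called by sex, or at an unadjusted p under 0.05 in another comparison, reversed its direction in an alternative setting. The median over the 91 members, below 0 in each comparison as reported, did change sign. Its highest value was 0.09 by diet in males, 0.02 by diet in females, 0.04 for the interaction and 0.04 for sex. Its lowest value was -0.12, -0.49, -0.51 and -0.27 in the same order. The count of members called by sex, 13 as reported, was 28 with library totals only, 8 without LP female 1, LP female 2 and NP female 3, 3 in NP mice, 4 in LP mice and 3 with a 1.5-fold minimum, and leaving out 1 library gave 7 to 26. Alternatives chosen after seeing the data gave 22 (length offsets), 25 (length and GC offsets) and 21 (length offsets without NP female 3). In the fit as reported, 38.7% of all genes were called by sex. The share of all genes with these offsets and with the 1.5-fold minimum is not reported here, so these counts cannot be set against it. DESeq2 called 1 member for the interaction, where edgeR called 0. By limma-voom with quality weights 0 members were called by diet in females and 0 for the interaction. In females it gave 32 members an unadjusted p under 0.05, beside 2437 of all 13510 genes. For the interaction it gave 42, beside 2919 of all 12665 genes. Leaving out 1 library gave 0 calls by diet and for the interaction, with medians of -0.12 to 0.07 (males), -0.49 to -0.01 (females) and -0.47 to 0.04 (interaction). For sex the medians were -0.26 to -0.01. For the 13 members called by sex, 325 values kept their call and 91 lost it.

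With the replicate number as a block, 7 members were called by sex and 0 in each other comparison. The share of all genes called with the block is not reported here. The numbers did not pair the libraries: same-numbered LP and NP libraries correlated at -0.27 to 0.30 in males and -0.57 to -0.37 in females.

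The gene lists were also recomputed without single females, a choice made after seeing the data. Low counts limit Cox6b2, Ndufb2 and Ndufa4l2. How far reads set aside as ambiguous lowered Ndufb2 and Ndufa4l2 was not tested. Having only 3 NP females limits every comparison with females.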
